A study of Mus musculus with 6 samples.

Results

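The 48 genes described here encode proteins that find, cut and choose the introns of precursor RNA, and they belong to the Srsf, Hnrnp, Sf3a, Sf3b and Prpf families. They were taken by symbol from arrays of splenic cells of mice given rapamycin or PBS. A gene was a member if a probe set had exactly 1 gene symbol starting with one of these 5 prefixes, and its brightest such probe set over the 6 arrays was used. This gave 48 of 19938 named genes: 10 Srsf, 17 Hnrnp, 3 Sf3a, 6 Sf3b and 12 Prpf genes. All 48 lay above the brightness threshold and were tested together with 13965 genes in all. A further 15 probe sets were not members, because they also carry other symbols: 5 name Hnrnpa1, 9 name Hnrnpa3 and 1 names Hnrnph3. Srsf7 had no probe set of its own in the annotation used and was not analysed here.

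All mice were B6D2F1 hybrids that had been lethally irradiated and given B6 marrow freed of T cells, with or without B6 spleen cells. The labels do not say which mice received the spleen cells. In the rapamycin group 3 mice were injected intraperitoneally with 1.5 mg/kg rapamycin, an inhibitor of the growth kinase mTOR, every second day, and in the PBS group 3 mice were injected with the vehicle PBS. At day 10 the spleen cells carrying CD11b, an integrin of neutrophils, monocytes and macrophages, were taken with magnetic beads and read on 1 array per mouse, each labelled a biological replicate. The labels call the product myeloid-derived suppressor cells. The bead step does not separate cells of donor and host, or neutrophils from monocytes, so each array is a mixture. In such bulk samples fewer cells of a type and less RNA per cell cannot be told apart. Values are log2 expression values, on which a difference of -1 is a halving of the signal. Markers of the labelled cell type were high in both groups but did not all hold level. Itgam, which encodes CD11b, stood at 12.39 ± 0.08 with PBS and 12.27 ± 0.04 with rapamycin (mean ± SD, n = 3 each). S100a8, a neutrophil calcium-binding protein, stood at 13.25 ± 0.06 and 13.32 ± 0.03. Ly6g, a neutrophil marker, stood at 12.29 ± 0.09 and 11.99 ± 0.30, with rapamycin replicate 3 lowest at 11.66. Ly6g differed by -0.31 (limma adjusted p 0.202) and Fcgr3 by 0.19 (0.0651), and neither passed. Of 8 tested markers of the sorted cells, 1 was higher and 1 lower. Itgam did not pass (limma adjusted p 0.221), but did with quantile normalization repeated (-0.24, 0.0357). Cd33, a surface lectin of myeloid cells, was higher by 0.18 (0.0472), and was not called with that normalization (0.477). The array medians over all probe sets were 5.42 to 5.43 with PBS and 5.44 to 5.46 with rapamycin. The means of the tested genes were 7.06 to 7.07 with PBS and 7.05 with rapamycin. Markers of other cells moved in part with the groups. The mean level of 7 T cell genes was 5.56 to 5.70 on the PBS arrays and 5.28 to 5.42 on the rapamycin arrays, and 2 of them, Cd3g and Cd8a, were lower. That of 5 erythroid genes was 5.55 on each of the PBS arrays and 5.68 to 5.80 on the rapamycin arrays, and 1 of them, Slc4a1, the anion exchanger of red cells, was higher by 0.64. For 12 neutrophil genes the range was 12.40 to 12.45 with PBS and 12.32 to 12.38 with rapamycin. For 11 genes of dividing cells it was 9.60 to 9.63 and 9.54 to 9.62, and 2 of these genes, Mcm5 and Rrm2, were lower. Of 11 monocyte and macrophage genes Cd68 was higher by 0.83, and Ccr2 and the mannose receptor gene Mrc1 were lower by -0.34 and -1.04. Above the brightness threshold were 1 of 6 B cell genes (Cd79b, lower by -0.32), 3 of 6 NK cell genes and 3 of 5 dendritic cell genes, and no NK or dendritic gene above it was called. On dropping PBS mouse 2, none of the marker genes named here as higher or lower was called. The part of these shifts in the results that follow was not tested.

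Introns are removed by the spliceosome, which is built anew on each intron from small nuclear RNAs and their proteins. SR proteins, the products of the Srsf genes, bind exons through an RNA recognition motif and draw the spliceosome to nearby splice sites through a domain rich in arginine and serine. Proteins of heterogeneous nuclear ribonucleoproteins, the Hnrnp products, coat nascent RNA and often act against SR proteins, and many also steer export, stability or translation. The SF3a and SF3b complexes hold the U2 particle on the branch point. Many Prpf products build the U4/U6.U5 particle and the catalytic core or regulate them, while others, such as Prpf39, work with the U1 particle. Many SR and Hnrnp genes limit their own output through exons that send the messenger to decay, and mTOR signalling is known to reach SR proteins through the kinase Srpk2.

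With rapamycin, 14 of the 48 splicing factors were lower and 0 were higher (limma, Benjamini-Hochberg adjusted p under 0.05 over all genes tested). The 14 were 8 Hnrnp genes, 4 Srsf genes, Sf3a3 and Sf3b2, and none of the 12 Prpf genes passed. Among all genes tested, 6.92% were lower and 4.42% higher, so that 29.2% of the members stood against 6.92%. The shifts were small: the 14 genes lay between 11.7% and 31.3% below their PBS level, with log2 changes from -0.18 to -0.54 and a median of -0.27. At an unadjusted p under 0.05, 19 members were lower and 2 were higher, where 16.9% and 11.3% of all genes were. The median over all 48 was -0.09, and that of all genes tested was -0.02. Of the 48, 35 (72.9%) had a change below 0, as did 55.6% of all genes. The 3 rapamycin arrays all lay below the 3 PBS arrays for 20 members (41.7%) and above them for 3, where 19.4% and 12.6% of all genes did so. The members were brighter than the tested genes, with means of 8.92 and 7.06 on the array of PBS mouse 1. The share of genes called lower was larger with a stricter brightness filter. With no filter it was 3.87%. In a fit of only the 9869 genes above the 50th percentile of brightness, 10.8% of genes were lower, and 14 of the 46 members among them were.

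**Figure D1:**
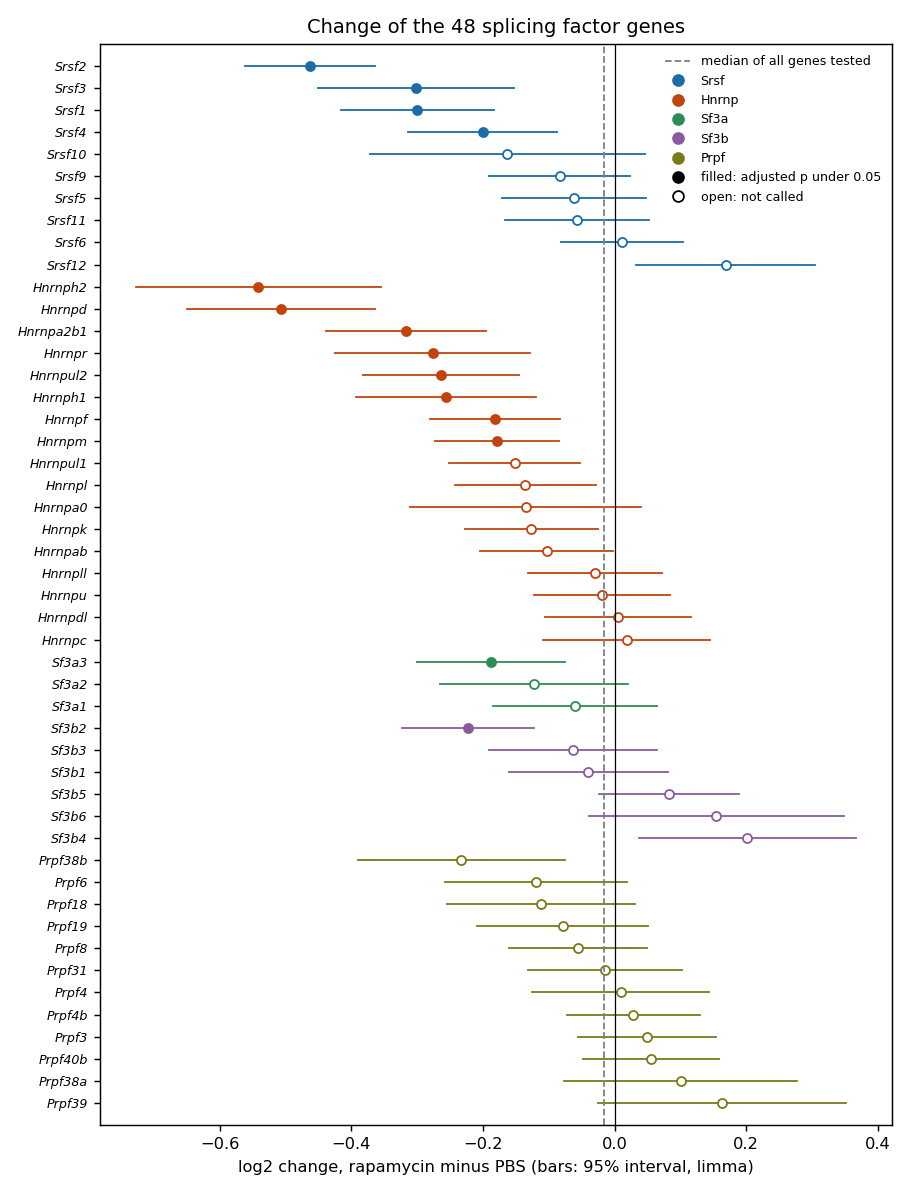
Log2 change of each of the 48 splicing factor genes, rapamycin minus PBS, with limma's 95% interval (n = 3 mice per group), by family. Filled points passed an adjusted p of 0.05, and the dashed line is the median of all genes tested. The 14 filled points all lie left of 0, from -0.18 to -0.54, and the 12 Prpf genes hold none. Among all genes tested, 6.92% were called lower and 4.42% higher.

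The count rested on having all 6 arrays. Leaving out rapamycin mouse 3 left 9 members lower, against 5.55% of all genes. Leaving out PBS mouse 1 left 6 (2.99% of all genes), and rapamycin mouse 2, 5 (2.91%). Fewest were left on dropping PBS mouse 3, with 3 (1.74%), rapamycin mouse 1, with 2 (1.58%), or PBS mouse 2, with 1 (0.437%). Srsf2 was called in each of the 6 fits, and Hnrnpd in 5. No called member changed sign in any of the 17 other settings tried, but most of these could not have reversed a sign. The groups of all 14 did not overlap, so dropping 1 array keeps the sign. Settings that alter only the filter, the error estimate or the block leave the change itself as it was.

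Among the SR proteins, Srsf2 showed the smallest adjusted p of all members. Srsf2 encodes SC35, an SR protein that defines exons and marks nuclear speckles. Its log2 values (probe set 10393395) were 11.29, 11.30 and 11.26 in the PBS mice and 10.83, 10.84 and 10.79 in the rapamycin mice. The groups did not overlap, and the SD within them was 0.02 with PBS and 0.03 with rapamycin. The change was -0.46 ± 0.04 (SE), or 27.5% lower, with limma's adjusted p of 0.00431.

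Srsf1 encodes ASF/SF2, the founding SR protein, which acts in constitutive splicing, in exon choice and in translation. Srsf1 stood at 9.62, 9.64 and 9.60 with PBS and at 9.33, 9.38 and 9.24 with rapamycin, a change of -0.30 ± 0.05 (limma adjusted p 0.0145). Its groups did not overlap, and the rapamycin mice varied more (SD 0.07) than the PBS mice (SD 0.02). Srsf3, the shortest SR protein, couples splicing to export of the messenger. Srsf3 values were 10.72, 10.67 and 10.64 with PBS and 10.34, 10.29 and 10.50 with rapamycin, a change of -0.30 ± 0.06 (0.0289). Rapamycin replicate 3 was the nearest to the PBS mice. Srsf4, an SR protein with a long arginine-serine domain, read 9.17, 9.18 and 9.25 with PBS and 8.95, 9.02 and 9.04 with rapamycin, a change of -0.20 ± 0.05 (0.0412). With 1 array left out, Srsf1 kept its call in 3 of 6 fits, and its adjusted p was 0.0688 when PBS mouse 2 was dropped, 0.0525 for PBS mouse 3 and 0.0569 for rapamycin mouse 1. Srsf3 was called only without rapamycin replicate 3 (0.0189), and Srsf4 in none, with adjusted p from 0.0572 without rapamycin replicate 3 to 0.123 without rapamycin replicate 1.

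The 6 other Srsf genes did not pass the test. Srsf9 differed by -0.08, Srsf5 and Srsf11 by -0.06 each and Srsf10, a repressor when it loses phosphate, by -0.16 ± 0.09 with wide spread in both groups. Srsf6 differed by 0.01 ± 0.04 with a 95% interval of -0.08 to 0.10. Its deposited value is exactly the same on 4 arrays, and limma's interval borrows spread from other genes. Srsf12, close to the brightness threshold at 4.74 with PBS and 4.91 with rapamycin, was the member of this family with the largest positive difference (0.17 ± 0.06, limma adjusted p 0.107). The median of the 10 Srsf genes was -0.12.

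**Figure D2:**
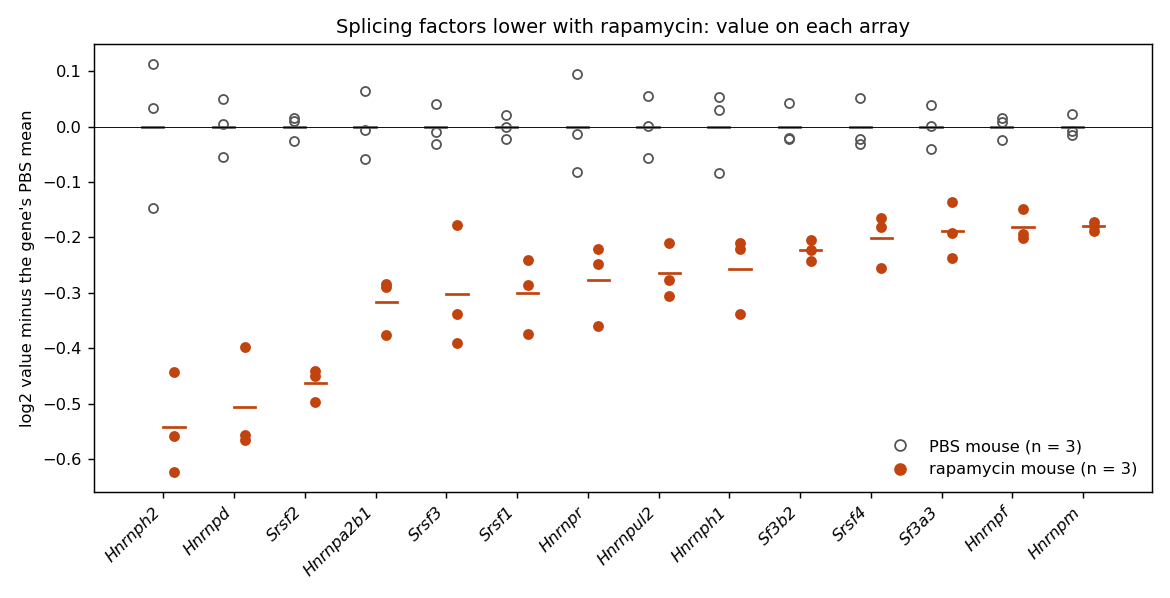
Log2 value of each array minus the gene's PBS mean for the 14 splicing factors called lower with rapamycin. Open circles are PBS mice, filled circles rapamycin mice (3 each) and bars the group means. In all 14 genes every rapamycin array lies below every PBS array, which selection by a call on these same arrays favours. Over all genes tested, called or not, 19.4% do so.

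Hnrnp genes held the largest changes. Hnrnph2, which binds runs of guanosine and is carried on the X chromosome, read 9.34, 9.52 and 9.60 with PBS and 8.86, 8.93 and 9.04 with rapamycin. PBS replicate 1 was the lowest of its group, and the groups did not overlap. The change was -0.54 ± 0.08 (SE), or 31.3% lower (limma adjusted p 0.0104). Hnrnpd encodes AUF1, which binds AU-rich messengers such as those of cytokines and guides their decay. Hnrnpd read 10.49, 10.54 and 10.43 with PBS and 9.93, 9.92 and 10.09 with rapamycin, a change of -0.51 ± 0.06 (0.00754), or 29.6% lower. Its close relative Hnrnpdl read between 9.02 and 9.11 on all 6 arrays and differed by 0.01 ± 0.05 with a 95% interval of -0.11 to 0.12.

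Hnrnpa2b1, which sorts RNA for transport and reads methylated adenosine, came next. It read 10.41, 10.54 and 10.47 with PBS and 10.10, 10.19 and 10.18 with rapamycin, a change of -0.32 ± 0.05 (limma adjusted p 0.0143), with no overlap between groups. Hnrnph1 and Hnrnpf share the guanosine-binding type of Hnrnph2. Hnrnph1 went from 10.18 ± 0.07 to 9.92 ± 0.07 (mean ± SD, n = 3 each) and changed by -0.26, and Hnrnpf went from 11.54 ± 0.02 to 11.35 ± 0.03 and changed by -0.18. These 3 members of the type were lower, while the probe set of their relative Hnrnph3, which also carries the symbol Aff3, differed by 0.01. Since these 3 genes resemble each other in sequence, their probe sets may share part of their signal. Hnrnpr, a binder of messengers in cytoplasm and nucleus, changed by -0.28, Hnrnpul2, a relative of the nuclear scaffold protein Hnrnpu, by -0.26 and Hnrnpm, a splicing regulator that binds guanosine and uridine, by -0.18. The adjusted p of these 5 genes lay between 0.0222 for Hnrnpul2 and 0.0371 for Hnrnpf. With 1 array left out, Hnrnpd was lost only without PBS replicate 2 (adjusted p 0.0504), and Hnrnph2 on dropping either PBS mouse 2 (0.0635) or rapamycin mouse 1 (0.0541). Hnrnpa2b1 was lost in 3 fits, at 0.0638 on dropping PBS mouse 2, 0.0561 for PBS mouse 3 and 0.0577 for rapamycin mouse 1. Hnrnpul2 kept its call without PBS replicate 1 (0.0418) or rapamycin replicate 3 (0.0304). Hnrnph1, Hnrnpf, Hnrnpr and Hnrnpm kept it in none, with adjusted p from 0.0537 for Hnrnpr without rapamycin replicate 3 to 0.124 for Hnrnph1 without PBS replicate 2.

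Of the 9 other Hnrnp genes, 4 had groups that did not overlap and an unadjusted p under 0.05, all lower, without passing the adjustment. Hnrnpk, a binder of cytidine runs, read 11.58, 11.66 and 11.60 with PBS and 11.49, 11.48 and 11.50 with rapamycin, a difference of -0.13 ± 0.04 (limma adjusted p 0.104). Hnrnpul1 differed by -0.15 (0.0631), Hnrnpl by -0.14 (0.101) and Hnrnpab by -0.10 (0.169). When quantile normalization was repeated, Hnrnpk (-0.22, adjusted p 0.0184), Hnrnpul1 (-0.26, 0.0111) and Hnrnpab (-0.19, 0.0436) were called lower. Hnrnpa0 differed by -0.14 with overlapping groups. Other abundant members showed little difference: Hnrnpu, which anchors chromatin and RNA in the nucleus, read 10.80, 10.80 and 10.79 with PBS and 10.73, 10.79 and 10.82 with rapamycin, with a 95% interval of -0.12 to 0.08. Hnrnpc, which guards uridine tracts of introns, differed by 0.02 ± 0.05. Hnrnpll, which directs exon skipping in the messenger of the leukocyte phosphatase CD45, differed by -0.03 ± 0.04, with an interval of -0.13 to 0.07. The median of the 17 Hnrnp genes was -0.15, the lowest of the 5 families.

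Promoter windows of the 3 members with the largest changes are shown. They were picked for the size of the change, and shared regulation was not tested. Each window holds 250 bases before and 50 after the start site, 5′ to 3′ on the gene's strand (RefSeq, GRCm38.p6). Capitals mark CACGTG, the E-box letters that Myc and its partners bind, GGAAGT and CCGGAA, letters of the type bound by ETS factors, each searched on both strands (ACTTCC and TTCCGG on the opposite strand). GGAAGT and CCGGAA overlap in CCGGAAGT. The Srsf2 window is chr11:116853045-116853344 on the minus strand, that of Hnrnpd chr5:99978889-99979188 on the minus strand, and that of Hnrnph2 chrX:134600929-134601228 on the plus strand.
Srsf2: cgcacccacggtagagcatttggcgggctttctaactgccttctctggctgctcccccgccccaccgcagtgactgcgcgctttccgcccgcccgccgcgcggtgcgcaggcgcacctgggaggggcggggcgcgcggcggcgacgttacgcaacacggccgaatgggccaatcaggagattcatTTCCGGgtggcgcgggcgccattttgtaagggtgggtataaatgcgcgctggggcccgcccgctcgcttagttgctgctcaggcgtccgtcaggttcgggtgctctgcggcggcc
Hnrnpd: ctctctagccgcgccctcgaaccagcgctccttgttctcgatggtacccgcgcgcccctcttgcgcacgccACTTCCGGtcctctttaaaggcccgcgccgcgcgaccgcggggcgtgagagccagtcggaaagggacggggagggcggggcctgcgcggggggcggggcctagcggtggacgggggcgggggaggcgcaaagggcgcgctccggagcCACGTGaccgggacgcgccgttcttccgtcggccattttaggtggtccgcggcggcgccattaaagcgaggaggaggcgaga
Hnrnph2: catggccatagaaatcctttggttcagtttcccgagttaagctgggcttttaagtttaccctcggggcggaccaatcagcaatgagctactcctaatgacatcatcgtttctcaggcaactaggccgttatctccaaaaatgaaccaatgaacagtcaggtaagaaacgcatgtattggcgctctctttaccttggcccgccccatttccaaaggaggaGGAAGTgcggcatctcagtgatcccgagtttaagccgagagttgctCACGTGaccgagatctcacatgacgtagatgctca
CCGGAA lay in the Srsf2 window from base -65 on the opposite strand. Hnrnpd held ACTTCCGG, in which both ETS-type words overlap on the opposite strand, from base -179, and CACGTG from base -32. Hnrnph2 held GGAAGT from base -31 and CACGTG from base 15. Of the 48 members 43 matched a promoter entry, with 59 windows, some of which overlap within a gene. Hnrnpll, Hnrnpul2, Prpf18, Sf3b4 and Sf3b5 had no entry. CCGGAA was found in 50.8% of the 59 windows, in 14.9% of all 32851 windows and in 23.9% of the 13901 windows of genes tested. GGAAGT was found in 40.7%, 23.8% and 26.9%, and CACGTG in 13.6%, 7.15% and 9.44%. By gene, CCGGAA was found for 9 of the 13 called members with a window and for 15 of the 30 others. GGAAGT was found for 7 of 13 and 15 of 30, and CACGTG for 4 of 13 (Hnrnpd, Hnrnpf, Hnrnph2 and Hnrnpm) and 3 of 30. These counts describe letters in fixed windows. Genes with more windows have more chances to hold a word, and no share by gene was made over all genes. A link between the words and the calls was not tested.

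Of the SF3 subunits, 1 of 3 in SF3a and 1 of 6 in SF3b were lower, and none was higher. Among all genes tested, 6.92% were lower and 4.42% higher, and sets of 3 and 6 genes are too small to compare with these shares. In SF3a, Sf3a3 read 8.05, 8.01 and 7.96 with PBS and 7.87, 7.77 and 7.81 with rapamycin. The groups were close but apart, and the change was -0.19 ± 0.05 (SE, limma adjusted p 0.0475), the call nearest to the threshold. It was lost in every fit that left out an array, with adjusted p between 0.0842 without rapamycin replicate 1 and 0.132 without PBS replicate 2. Its partners Sf3a2 (-0.12 ± 0.06, 0.237) and Sf3a1 (-0.06 ± 0.05, 0.496) did not pass.

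In SF3b, Sf3b2, which contacts RNA beside the branch point, read 9.36, 9.36 and 9.42 with PBS and 9.14, 9.16 and 9.17 with rapamycin, a change of -0.22 ± 0.04 (limma adjusted p 0.0223). The rapamycin mice lay close together (SD 0.02), and the groups did not overlap. With 1 array left out, Sf3b2 was called only without rapamycin replicate 3 (adjusted p 0.0378), and the other 5 fits gave 0.0530 without PBS replicate 1 to 0.0779 without rapamycin replicate 1. Sf3b1, the large subunit that clamps the branch point, read 10.72, 10.82 and 10.83 with PBS and 10.72, 10.81 and 10.72 with rapamycin. The groups overlapped, and the difference was -0.04 with a 95% interval of -0.16 to 0.08. None of the small subunits passed: Sf3b4 differed by 0.20 ± 0.07 (0.111), Sf3b6 by 0.15 ± 0.08 (0.268) and Sf3b5 by 0.08 ± 0.05 (0.279), while Phf5a, a small SF3b subunit outside these families, differed by -0.04 ± 0.05 (0.652). Sf3b4 read 7.08, 6.94 and 6.82 with PBS and 7.16, 7.18 and 7.11 with rapamycin, without overlap, and its second, dimmer probe set differed by -0.05 ± 0.18. The median of the 6 Sf3b genes was 0.02, and it was below 0 with quantile normalization repeated (-0.0088) or array medians aligned (-0.0022).

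None of the 12 Prpf genes was called by limma, where 6.92% of all genes tested were lower and 4.42% higher. A count of 0 among 12 genes cannot be told from these shares. At an unadjusted p under 0.05 there was 1, Prpf38b, where 16.9% of all genes were lower and 11.3% higher. The fit without moderated variances called 0 Prpf genes as well, and 0.408% of all genes lower and 0.208% higher. Prpf38b, a relative of a U4/U6.U5 protein needed to activate the spliceosome, read 9.26, 9.24 and 9.25 with PBS and 8.98, 8.92 and 9.16 with rapamycin. Rapamycin replicate 3 lay nearest to the PBS mice, and the difference was -0.23 ± 0.07 (limma adjusted p 0.0685). Without that array it was -0.30 (0.0208) and called. Prpf8, the scaffold of the catalytic core, read 10.03, 10.12 and 10.11 with PBS and 10.01, 10.03 and 10.05 with rapamycin. Prpf8 differed by -0.06 ± 0.04, with a 95% interval of -0.16 to 0.05. Prpf19, the ubiquitin ligase that stabilises the active spliceosome, differed by -0.08 ± 0.06 and the kinase gene Prpf4b by 0.03 ± 0.04. Prpf4b has the same deposited value on 4 arrays. Prpf39, a partner of the U1 particle, had the largest positive difference, 0.16 ± 0.08 (0.231), with overlapping groups. The proteins of U4/U6.U5, Prpf3, Prpf4, Prpf6 and Prpf31, differed by 0.05, 0.01, -0.12 and -0.02. The family's median was -0.0030, and it was 0.03 with the medians of the tested genes aligned.

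Among the 34 members not called, half-widths of the 95% interval ran from 0.09 to 0.21, and the interval reached -0.3 or below in 3. The mean log2 value over all 48 members was 8.92, 8.94 and 8.92 on the PBS arrays and 8.81, 8.80 and 8.85 on the rapamycin arrays.

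For 7 members the array holds several probe sets, 18 in all, of which 4 were called when each probe set was tested on its own. The 4 Hnrnpf probe sets stood at -0.18, -0.15, -0.15 and -0.13, and only the brightest was called. Both Hnrnph2 probe sets were called lower, at -0.54 ± 0.08 and -0.53 ± 0.07. The 3 Hnrnpk probe sets stood at -0.13, -0.13 and -0.04. Srsf3 was the member whose probe sets disagreed with a call among them: the brightest stood at -0.30, the second at -0.18 ± 0.07 and the dimmest, near 5.74 with PBS, at 0.09 ± 0.15. With probe sets averaged per gene, Srsf3 and Hnrnpf were not called, and 12 members and 6.89% of all genes were lower. Several probe sets of a gene list the same messenger accessions, and near-identical processed copies of such genes may add to their signal. Of the probe sets that carry several symbols, the 9 that name Hnrnpa3 differed by -0.12 to -0.35 the 5 that name Hnrnpa1 by -0.03 to -0.06 and the 1 that names Hnrnph3 by 0.01, and none of these can be given to 1 gene.

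**Figure D3:**
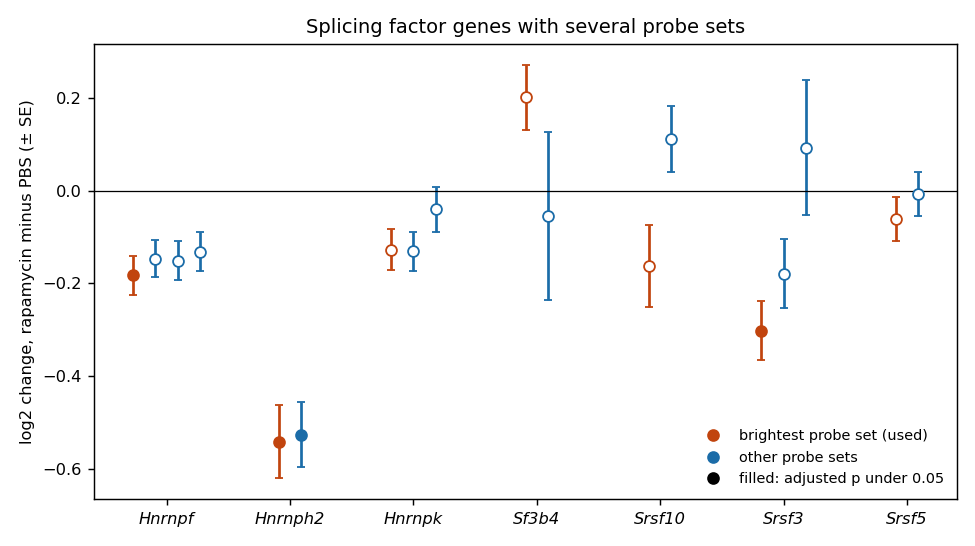
Log2 change, rapamycin minus PBS (± SE, n = 3 mice per group), of each probe set of the 7 splicing factor genes that have more than 1. The brightest probe set is red and the others blue, and filled points passed an adjusted p of 0.05 over probe sets. Both Hnrnph2 probe sets lie near -0.5, while the Srsf3 probe sets run from -0.30 to 0.09.

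Calls in the rest of the splicing machinery went in both directions. Of 163 tested genes on 9 further lists, 14 (8.59%) were lower and 8 (4.91%) higher, close to the 6.92% and 4.42% of all genes. Their median change was -0.03. Among 16 helicases and the GTPase of the spliceosome, 5 were lower and 1 higher, with a median of -0.13. Snrnp200, the helicase that unwinds U4 from U6, went from 9.18 ± 0.06 to 8.88 ± 0.08 (mean ± SD, n = 3 each) and changed by -0.30 ± 0.06 (SE, limma adjusted p 0.0232). Dhx38, a helicase of the remodelling before the second step, changed by -0.28 ± 0.04 (0.0139), the export helicase gene Ddx39a by -0.20 and Ddx5, which also acts in transcription, by -0.20. The 1 called higher was Ddx39b, at 0.30 ± 0.07 (limma adjusted p 0.0389), named after its values were seen. The helicases called lower numbered 4 on dropping rapamycin mouse 3, 1 on dropping PBS mouse 1 or 3 or rapamycin mouse 2, and 0 on dropping PBS mouse 2 or rapamycin mouse 1. With replicate numbers as a block, or with the medians of the tested genes aligned, 2 were called lower and 2 higher.

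Of 22 tested proteins of the small nuclear particles, Sart1, which recruits U4/U6.U5, was lower by -0.41 ± 0.07 (limma adjusted p 0.0139), Lsm6 of the U6 ring by -0.27 (0.0414), and the U1 protein Snrpa was higher by 0.29 (0.0389). Thus 2 were lower and 1 higher, with a median of 0.03. Sart1 was lost without PBS replicate 2 (0.0693) or PBS replicate 3 (0.0589), Lsm6 in each fit that left out an array except that without rapamycin replicate 3, and Snrpa in all 6. Of 17 genes of splice acceptor and branch point recognition 1 was higher, Rbm5, a regulator of apoptosis genes, at 0.25 ± 0.06 (0.0412). Of 20 genes of the Prp19 complex and the catalytic steps 1 was lower, Cwc25, at -0.20, and of 8 genes of the minor spliceosome 1 was lower, Snrnp35, at -0.39 ± 0.07 (0.0220). Rbm5 and Cwc25 were not called with any 1 array left out, and Snrnp35 was lost on dropping PBS mouse 2 (0.0951) or 3 (0.0820) or rapamycin mouse 1 (0.0896). None of 14 genes of the exon junction complex and export passed limma's test, where the largest statistic was that of Rbm8a (-0.14, 0.0902), and none of 10 genes of nonsense-mediated decay did, with Etf1, a termination factor, at -0.21 (0.0681). At an unadjusted p under 0.05 the exon junction list had 3 lower and 0 higher, and the decay list 1 lower and 1 higher. The fit without moderated variances called 1 lower and 3 higher over all 9 lists.

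Among 9 tested kinases and import factors of SR proteins, 1 was called. Clk1, a nuclear kinase that phosphorylates SR proteins and releases them from speckles, read 10.28, 10.39 and 10.32 with PBS and 10.84, 10.78 and 10.85 with rapamycin. The groups lay far apart, and the change was 0.49 ± 0.05 (SE, limma adjusted p 0.00513). Clk1 was called in each of the 17 other settings. Its relatives Clk3 and Clk4 differed by -0.05 and 0.05, and the cytoplasmic kinases Srpk1 and Srpk2 by -0.03 ± 0.05 and -0.17 ± 0.05 (0.0785), so none of these 4 passed.

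Other regulators of splice choice split, with 5 lower and 4 higher of 47 tested. Mbnl3, a muscleblind protein, changed by -0.51 ± 0.06 (SE, limma adjusted p 0.00770), and Khdrbs1, the signalling-dependent regulator Sam68, by -0.22 ± 0.04 (0.0230). Luc7l3, a U1-associated protein, was higher by 0.34 ± 0.04 (0.00770), and Fubp1, which binds single-stranded DNA and RNA, by 0.25 ± 0.04 (0.0145). Without PBS replicate 2, Mbnl3 (0.0505), Khdrbs1 (0.0731), Luc7l3 (0.0504) and Fubp1 (0.0635) were not called. Fubp1 was also lost on dropping PBS mouse 3 or rapamycin mouse 1, and Khdrbs1 was called only without rapamycin replicate 3. Cirbp and Rbm3, the cold-inducible RNA-binding proteins, had the largest negative differences of this list: Cirbp read 8.85, 9.13 and 9.24 with PBS and 7.94, 7.77 and 8.79 with rapamycin, and differed by -0.91 ± 0.25 (0.0602), and Rbm3 changed by -0.54 ± 0.12 (0.0305). Both were chosen after their values were seen, and in both rapamycin replicate 3 lay nearest to the PBS mice. On dropping that mouse Cirbp was called (-1.22, 0.0144), as it was with the block (0.0180), while Rbm3 was not called on dropping any other mouse.

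**Figure D4:**
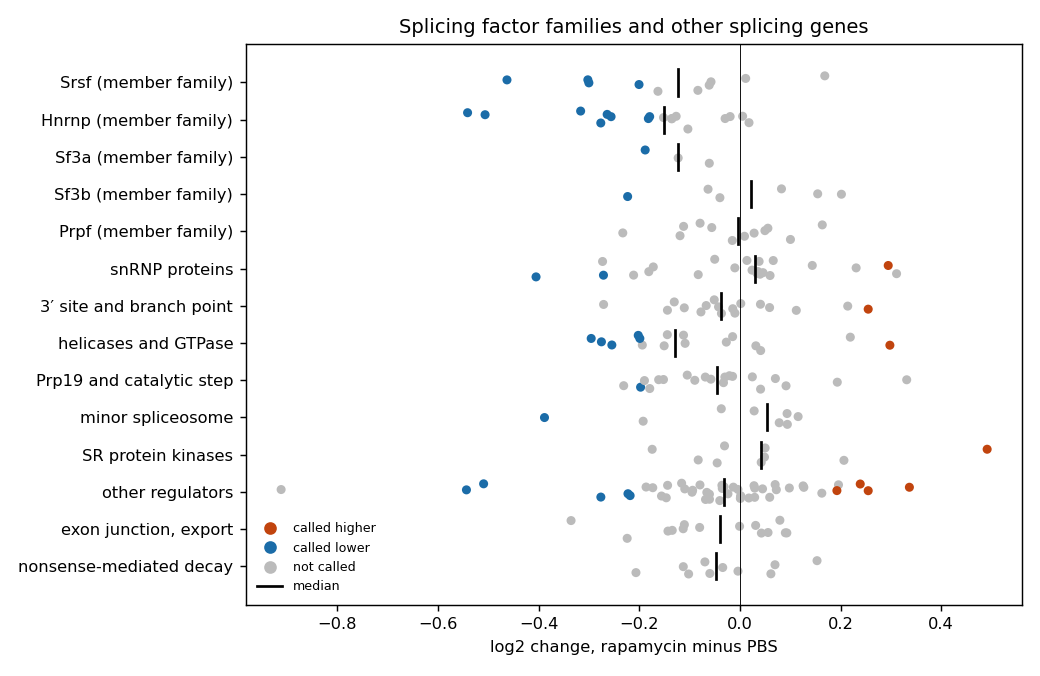
Log2 change, rapamycin minus PBS, of every tested gene in the 5 splicing factor families and in 9 further splicing lists, with the median of each as a bar. Calls are coloured (blue lower, red higher). Called lower were 8 of 17 Hnrnp, 4 of 10 Srsf, 1 of 3 Sf3a, 1 of 6 Sf3b and 0 of 12 Prpf genes, and none was higher. The further lists hold 14 lower and 8 higher among 163 genes, with 5 of the 14 among the 16 helicases and GTPase. Among all genes tested, 6.92% were lower and 4.42% higher.

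Scaling of the arrays bears on small shifts of this size. The deposited values give a median change of -0.02 over all genes tested. With the medians of the tested genes aligned, 9 members were lower and 0 higher, and among all genes 707 were lower and 875 higher, so that the share of lower genes among all calls went from 61.0% to 44.7%. In that setting 18.8% of the members and 5.06% of all genes were lower. The calls of Srsf4, Hnrnpf, Hnrnph1, Hnrnpm and Sf3a3 were lost there. With quantile normalization repeated, 18 members were lower, and with the array medians aligned over all probe sets 16 were, where 9.61% and 9.60% of all genes were. With no brightness filter 13 members and 3.87% of genes were lower, and with every probe set in the fit 14 and 7.23%. An intensity trend with robust estimation gave 15 and 7.35%, and array weights 15 and 7.95%. The unmoderated fit gave 2, Srsf2 and Hnrnpm, and 0.408%, and the block 8 and 6.61%. Across the 3 scalings no called member changed sign, and 7 members that were not called did.

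**Figure D5:**
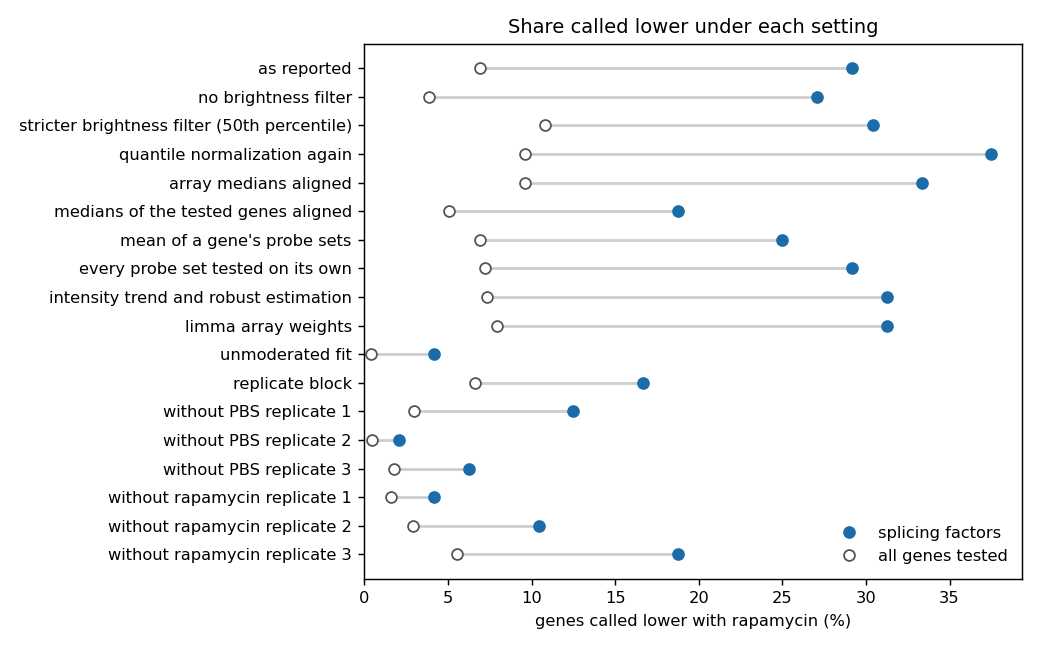
Share of genes called lower with rapamycin (%), for the splicing factors (filled) and for all genes tested (open), as reported and under each of 17 other settings. The members' share exceeds that of all genes in each setting and runs from 2.08% without PBS replicate 2 to 37.5% with quantile normalization repeated. The settings reuse the same 6 arrays and are not separate tests. The lowest share is 1 member, Srsf2, against 0.437% of all genes, a share that any 1 call among 48 exceeds.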

How the data were processed

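Total RNA of 6 mice was read on 1 whole-transcript array each, per the labels. Each value the authors deposited is a log2 expression value of a probe set, made with RMA in Affymetrix Expression Console per the submitters' processing notes; their versions are not given in the sources used here. The method gives all arrays nearly the same distribution, which hides any shift common to most genes. Arrays have no sequencing depth, and their number limits the precision. No 2 arrays shared more than 6.99% of values.

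Of 35556 probe sets, 21789 have 1 symbol in GEO's platform annotation of 2016, 1621 have several and 12146 are unnamed here. The brightest probe set stood for a gene. Of 19938 genes, 13965 had a mean at or above the 30th percentile (log2 4.72). The comparison used lmFit and eBayes of limma 3.58.1 (R 4.3.3, 2-sided tests), with Benjamini-Hochberg adjustment over all genes tested and calls at 0.05. SE are moderated. The fit was tested on simulated data.

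The members and lists were chosen with earlier results of these data known. Genes named are the called members, the 2 with the largest statistic of each family, those with disagreeing probe sets, and 12 picked by role, of which Srsf7 and Hnrnpa1 are not members here; from each further list up to 4 called genes, or 1; others were named after their values were seen. Of 179 listed splicing genes, 167 were found. The probe sets' genome build was not used here. Figures used matplotlib 3.10.9 in Python 3.11.15.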

Additional observations from a re-analysis of the deposited data

How the results depend on the processing

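The limits are those of 3 arrays per group and of small shifts. With 1 array left out, the members called lower ranged from 1 to 9 (14 with all arrays), the Srsf genes from 1 to 3, the Hnrnp genes from 0 to 4, the Sf3b genes from 0 to 1 and the Prpf genes from 0 to 1, and Sf3a3 was not called in any of these fits. All genes ranged from 52 to 561 higher and 61 to 775 lower, the further splicing lists from 1 to 5 higher and 0 to 15 lower, and the members' median from -0.10 to -0.071. These fits also have fewer samples. With the unmoderated fit, which has few degrees of freedom, 2 members were lower (1 Srsf, 1 Hnrnp, 0 Sf3a, 0 Sf3b), as were 57 of all genes with 29 higher, and 1 further splicing gene with 3 higher. With the replicate block, 8 members were lower (4 Hnrnp, 0 Sf3a), and 923 genes in all were lower and 768 higher. The labels do not say whether same-numbered mice share more than a number. Their deviations from the group means correlated at 0.26, which was the highest of all pairs, 0.010 and 0.046. PBS replicate 3 correlated best with rapamycin replicate 2 (0.14). With 3 mice per group, these values cannot decide whether the mice were paired. With no brightness filter, 0 Sf3a genes and 4 higher genes of the further lists were called, in a fit of 19938 genes. With the medians of the tested genes aligned, a setting chosen after seeing the data, 9 members were lower (5 Hnrnp, 0 Sf3a) and 13 further splicing genes higher, the members' median was -0.062 and values of 4 uncalled genes turned above 0: Hnrnpll (0.0022), Hnrnpu (0.012), Prpf31 (0.017) and Srpk1 (0.0011). With array medians aligned, Hnrnpc (-0.0055), Hnrnpdl (-0.018), Prpf4 (-0.014) and Srsf6 (-0.012) turned below 0, and with quantile normalization repeated Hnrnpdl (-0.010) and Prpf4 (-0.00070) did. With 1 array left out, values of 6 uncalled genes took both signs, over -0.021 to 0.031 for Hnrnpdl, -0.019 to 0.064 for Hnrnpc, -0.036 to 0.062 for Prpf4, -0.040 to 0.0067 for Hnrnpu, -0.052 to 0.018 for Prpf31 and -0.054 to 0.014 for Srpk1. The median was -0.11 with quantile normalization repeated and -0.12 with array medians aligned, and it was -0.071 without rapamycin replicate 2. Each of these 2 scalings, and array weights, called 1 Prpf gene, Prpf38b. The cause of a lost call was not tested. Over the 48 members and 36 of the other named genes, 1149 values under these settings kept direction and side of the threshold. A further 235 lost a call, 22 gained one and 18, of 8 genes, changed sign.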
